A study of Mus musculus with 12 samples.

Results

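The 34 genes described here make cholesterol and fatty acids, or control that synthesis through the sterol regulatory element-binding proteins (SREBPs). They were chosen by gene symbol, as probe sets annotated to 1 symbol only on an Affymetrix mouse gene expression array. Of the 34 genes, 30 were measured, among 16015 probe sets with a symbol. They were kept as 3 groups: 15 of 18 enzymes of the sterol pathway, all 6 genes of SREBP control, and 9 of 10 genes of the fatty acid pathway. Acat2 and Idi1 had no probe set under their own name, and Tm7sf2 and Acss2 only one shared with another gene, so these 4 are not analysed here. Each measured gene had 1 probe set.

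The arrays measured RNA of cultured bone marrow progenitor cells of C57B/6 mice, all transduced by retrovirus with Hoxa9, a homeobox gene that immortalises myeloid progenitors. The labels give female donors of 12 weeks that had received 5-FU (fluorouracil), which kills dividing marrow cells. The cultures held 15% FCS, IL3, SCF and IL6. Hoxa9 and the microRNA miR-155 in wild-type cells, called miR155, had 3 arrays. Hoxa9 with the vector MIG in marrow of miR-155 KO mice, called KO, had 3 arrays. Hoxa9 and Meis1, a homeobox cofactor of Hoxa9, in wild-type cells had 1 array, called Meis1; its title also carries the mark 3w, which is not explained in the labels and is not interpreted here. Hoxa9 with the empty vector MIY in wild-type cells, called MIY, had 2 arrays, and Hoxa9 with the vector MIG in wild-type cells, called MIG, had 3. Every culture thus carried added Hoxa9, and all constructs were MSCV retroviral vectors. Per the series design text, each condition was run as independent experiments, and miR155 was to be compared with MIY. The p-values rest on 1 spread per gene, pooled over the arrays of all groups. They need not match the spread of the groups compared. The labels do not say how many mice were pooled or how many cell clones grew out. In such bulk cultures, fewer cells of a type and less RNA per cell cannot be told apart.

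Cholesterol is built from acetyl-CoA through mevalonate, the isoprenoid farnesyl diphosphate, squalene and lanosterol, and then by trimming of the sterol ring. SREBPs are transcription factors held in the membrane of the endoplasmic reticulum. When sterols are scarce, the escort protein SCAP carries them to the Golgi, where they are cut and released to the nucleus, and when sterols are plentiful the INSIG proteins hold SCAP back. SREBP-2 mainly drives sterol genes and SREBP-1 mainly fatty acid genes, and growing blood progenitors make their own sterols and fatty acids for new membranes.

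The added agent was miR-155. Its main mature strand, mmu-miR-155-5p, lies on the + strand at chr16:84714143-84714165 (GRCm38.p6, RefSeq) and has 23 bases. It is shown with its seed, bases 2 to 8, in capitals, because base pairing through the seed is how a microRNA finds its target transcripts. No array probe set is named for miR-155, so its own level was not analysed here.

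mmu-miR-155-5p: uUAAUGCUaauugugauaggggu

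Promoter sequences were listed in RefSeq (GRCm38.p6) for 23 of the 30 measured genes, each as 300 bases, of which 250 lie before the transcription start and 50 after it. Both strands were searched for TCACNCCAC, a common form of the sterol regulatory element, for the E-box CACGTG, which SREBP-1 can also bind, for CCAAT, the site of the SREBP partner NF-Y, and for GGGCGG, the core of the Sp1 site. Shares are of all 27025 genes with a listed promoter, a gene being counted once where any of its promoters held the motif. TCACNCCAC was found in 1 of 12 sterol pathway genes (Hmgcs1), in 0 of 5 control genes and in 0 of 6 fatty acid genes, and in 1.44% of all genes. CCAAT was found in 12 of 12 sterol pathway genes, 4 of 5 control genes and 2 of 6 fatty acid genes, against 41.1% of all genes. CACGTG was found in 3 of 12, 2 of 5 and 0 of 6, against 8.09%, and GGGCGG in 11 of 12, 5 of 5 and 2 of 6, against 38.2%. Motifs may overlap, and a match is a description and not a bound site.

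Shown are 4 promoters whose genes the results turn on: Hmgcs1 (chr13:119690101-119690400, + strand), which makes HMG-CoA at the head of the pathway; Nsdhl (chrX:72918271-72918570, + strand), the sterol enzyme that differed most in MIY cells; and the paired SREBP inhibitors Insig1 (chr5:28071162-28071461, + strand) and Insig2 (chr1:121332540-121332839, - strand, the first of 3 listed), which moved in opposite directions. Capitals mark TCACNCCAC, CACGTG and CCAAT on either strand, so ATTGG is CCAAT read on the other strand.

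Hmgcs1: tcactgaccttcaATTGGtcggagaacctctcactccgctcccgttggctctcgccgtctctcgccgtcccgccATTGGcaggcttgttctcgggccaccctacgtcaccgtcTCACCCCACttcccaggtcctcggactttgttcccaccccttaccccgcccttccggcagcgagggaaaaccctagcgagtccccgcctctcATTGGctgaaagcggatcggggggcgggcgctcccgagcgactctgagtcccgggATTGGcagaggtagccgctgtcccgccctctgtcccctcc
Nsdhl: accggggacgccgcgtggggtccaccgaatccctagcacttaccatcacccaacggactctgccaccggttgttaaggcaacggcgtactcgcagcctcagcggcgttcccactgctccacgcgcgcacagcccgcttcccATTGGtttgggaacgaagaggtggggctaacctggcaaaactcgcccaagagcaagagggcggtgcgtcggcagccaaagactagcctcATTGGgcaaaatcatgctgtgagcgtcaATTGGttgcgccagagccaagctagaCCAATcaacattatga
Insig1: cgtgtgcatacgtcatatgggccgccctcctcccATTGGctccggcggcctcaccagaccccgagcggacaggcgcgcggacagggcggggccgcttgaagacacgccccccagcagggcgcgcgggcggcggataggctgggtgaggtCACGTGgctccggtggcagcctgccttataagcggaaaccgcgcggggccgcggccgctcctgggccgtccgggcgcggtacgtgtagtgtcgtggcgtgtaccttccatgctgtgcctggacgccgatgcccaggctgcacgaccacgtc
Insig2: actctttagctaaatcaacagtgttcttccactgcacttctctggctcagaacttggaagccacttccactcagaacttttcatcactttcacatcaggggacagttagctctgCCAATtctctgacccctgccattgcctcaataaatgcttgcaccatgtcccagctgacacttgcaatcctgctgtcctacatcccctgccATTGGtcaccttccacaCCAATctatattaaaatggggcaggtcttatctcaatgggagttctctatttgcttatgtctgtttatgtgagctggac

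In Hmgcs1, TCACCCCAC began 137 bases before the transcription start, with 4 CCAAT matches around it. Nsdhl held 4 CCAAT matches and neither other motif. Insig1 held 1 CACGTG, beginning 101 bases before the start, and 1 CCAAT, whereas Insig2 held 3 CCAAT matches and no CACGTG.

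The values are log2 expression levels made by the authors with RMA. Within a group, arrays correlated at 0.985 to 0.996, MIY arrays correlated with MIG arrays at 0.963 to 0.974, and the Meis1 array with MIY arrays at 0.945 to 0.954. Hoxa9 read 13.07 to 13.41 on all 12 arrays. The Meis1 gene read 12.11 on the Meis1 array, against 6.74 and 7.11 on the MIY arrays and 7.57 to 7.58 on the MIG arrays. The Y-linked gene Eif2s3y read 8.24 on the Meis1 array and 9.23 and 9.31 on the MIY arrays, against 2.22 to 2.48 on the other 9 arrays, and Kdm5d read 6.89 on the Meis1 array and 8.05 and 8.15 on the MIY arrays, against 3.32 to 3.50, although all donors were labelled female. Thus the MIY and Meis1 arrays stood apart from the other 9, and in every comparison across that line the groups and the source of the cells cannot be told apart. Of the progenitor markers, Cd34 read 9.36 to 10.70 and Mpo 10.99 to 13.39 on the 12 arrays, and Flt3 read 8.92 in Meis1 cells but 5.92 to 6.90 elsewhere. Kit, which marks both progenitors and mast cells, read 9.25 to 10.06. Differences were tested with limma over all 12 arrays, with Benjamini-Hochberg adjustment across these 16015 probe sets, and called at an adjusted p under 0.05. Errors of differences are limma's standard errors (SE). All 30 members are shown by array in the heat map.

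**Figure D1:**
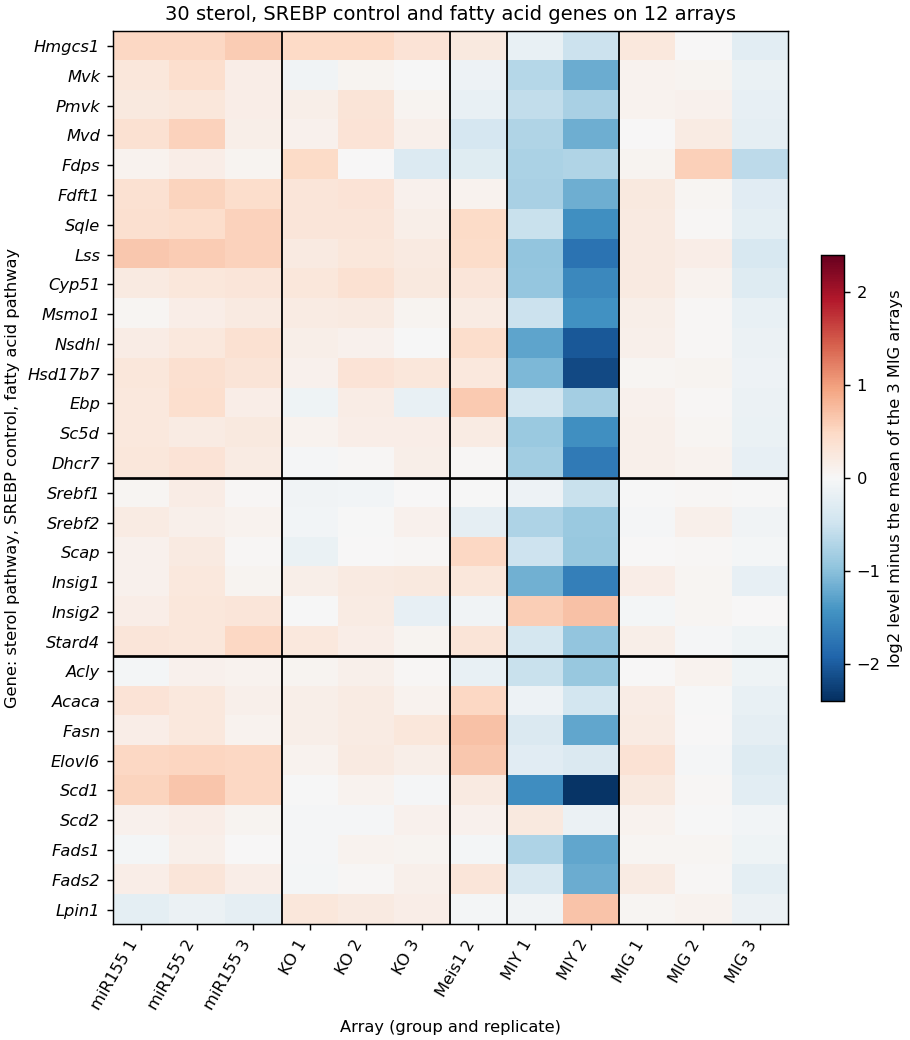
Heat map of the 30 measured genes (rows, in the order sterol pathway, SREBP control, fatty acid pathway) on the 12 arrays (columns). Colour is the log2 level minus the mean of the 3 MIG arrays for that gene: both MIY arrays are low for nearly all genes except Insig2, Scd2 and Lpin1, MIY 2 more so than MIY 1, and the miR155 arrays are a little above MIG for the sterol genes.

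In MIY cells, 13 of 15 sterol pathway genes were lower than in MIG cells and none was higher. Of the control genes, Insig1, Srebf2, Scap and Stard4 were lower and Insig2 was higher. Of the fatty acid genes, Scd1, Fads1 and Acly were lower. Lpin1 was called higher after the scaling given below, but not in the deposited values. The median of all probe sets was itself shifted by -0.22 on the log2 scale in this comparison. So differences are given relative to that shift, after each array was moved to a median difference of 0 to the mean array, while levels are as deposited. Relative to the shift, 18.7% of all probe sets were called lower and 19.9% higher, and in the deposited values 40.4% were called lower and 9.1% higher. The sterol count was 13 of 15 in both. The fatty acid counts were 3 lower and 1 higher relative to the shift. They were 5 lower and 0 higher in the deposited values and with quantile normalization. The median sterol difference was -0.76 relative to the shift, against 0.00 over all probe sets tested, and that of the control genes was -0.47 and of the fatty acid genes -0.50.

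In the mevalonate steps 3 of 5 genes were lower in MIY cells. Hmgcs1, which makes HMG-CoA, read 9.56 and 9.23 in MIY cells, against 9.99, 9.74 and 9.47 in MIG cells, with overlapping arrays and a difference of -0.12 ± 0.15 (adjusted p = 0.559). Mvk, mevalonate kinase, read 7.63 and 7.13 in MIY cells, against 8.40, 8.38 and 8.16 in MIG cells. Pmvk, which adds the next phosphate, read 7.67 and 7.49 in MIY cells, against 8.36, 8.37 and 8.06 in MIG cells. In both kinases the groups did not overlap, and MIY cells were lower by limma, with differences of -0.71 ± 0.14 (adjusted p = 0.00337) and -0.46 ± 0.11 (adjusted p = 0.00933). Mvd, which makes isopentenyl diphosphate, read 8.41 and 7.96 in MIY cells, against 9.15, 9.32 and 8.92 in MIG cells. Its difference was -0.72 ± 0.16 (adjusted p = 0.00683). The probe set of Fdps, farnesyl diphosphate synthase, gave low readings of 3.71 and 3.76 in MIY cells, against 4.53, 5.04 and 3.85 in MIG cells, and its difference did not pass (-0.52 ± 0.30, adjusted p = 0.198).

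From squalene to lanosterol all 3 genes were lower in MIY cells. Fdft1, squalene synthase, read 9.04 and 8.65 in MIY cells, against 10.05, 9.88 and 9.56 in MIG cells, a difference of -0.76 ± 0.15 (adjusted p = 0.00365). Sqle, the squalene epoxidase that adds the first oxygen, read 8.62 and 7.69 in MIY cells, against 9.37, 9.18 and 8.92 in MIG cells. Lss, which folds the chain into lanosterol, read 8.01 and 7.20 in MIY cells, against 9.18, 9.12 and 8.58 in MIG cells. No MIY array reached a MIG array in any of these 3 genes. The differences were -0.78 ± 0.22 for Sqle (adjusted p = 0.0196) and -1.13 ± 0.22 for Lss (adjusted p = 0.00331).

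The enzymes that trim lanosterol held the largest differences of the sterol pathway. Nsdhl, a dehydrogenase of the demethylation complex, read 9.97 and 9.21 in MIY cells, against 11.36, 11.27 and 11.09 in MIG cells. Hsd17b7, the keto reductase of the same complex, read 7.69 and 6.60 in MIY cells, against 8.82, 8.83 and 8.64 in MIG cells. Both were lower in MIY cells, by -1.43 ± 0.18 (adjusted p = 0.000280) and -1.40 ± 0.24 (adjusted p = 0.00152) on the log2 scale relative to the shift, and MIY cells held 0.372 and 0.379 of the MIG level on the linear scale. Cyp51, which removes the first methyl group of lanosterol, read 8.71 and 8.11 in MIY cells, against 9.87, 9.73 and 9.35 in MIG cells. Msmo1, which oxidises the remaining methyl groups, read 10.23 and 9.28 in MIY cells, against 10.87, 10.77 and 10.57 in MIG cells. The groups stayed apart in both, with differences of -1.02 ± 0.18 (adjusted p = 0.00175) and -0.76 ± 0.21 (adjusted p = 0.0191).

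The last steps were lower as well. Ebp, the sterol isomerase, read 8.09 and 7.72 in MIY cells, against 8.63, 8.56 and 8.39 in MIG cells, the smallest called difference of the pathway at -0.40 ± 0.13 (adjusted p = 0.0407). Sc5d, the sterol desaturase, read 9.40 and 8.82 in MIY cells, against 10.40, 10.32 and 10.12 in MIG cells. Dhcr7, the final reductase, read 9.22 and 8.37 in MIY cells, against 10.17, 10.15 and 9.85 in MIG cells. Both were lower in MIY cells on every array, by -0.95 ± 0.15 (adjusted p = 0.000900) and -1.04 ± 0.20 (adjusted p = 0.00326).

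**Figure D2:**
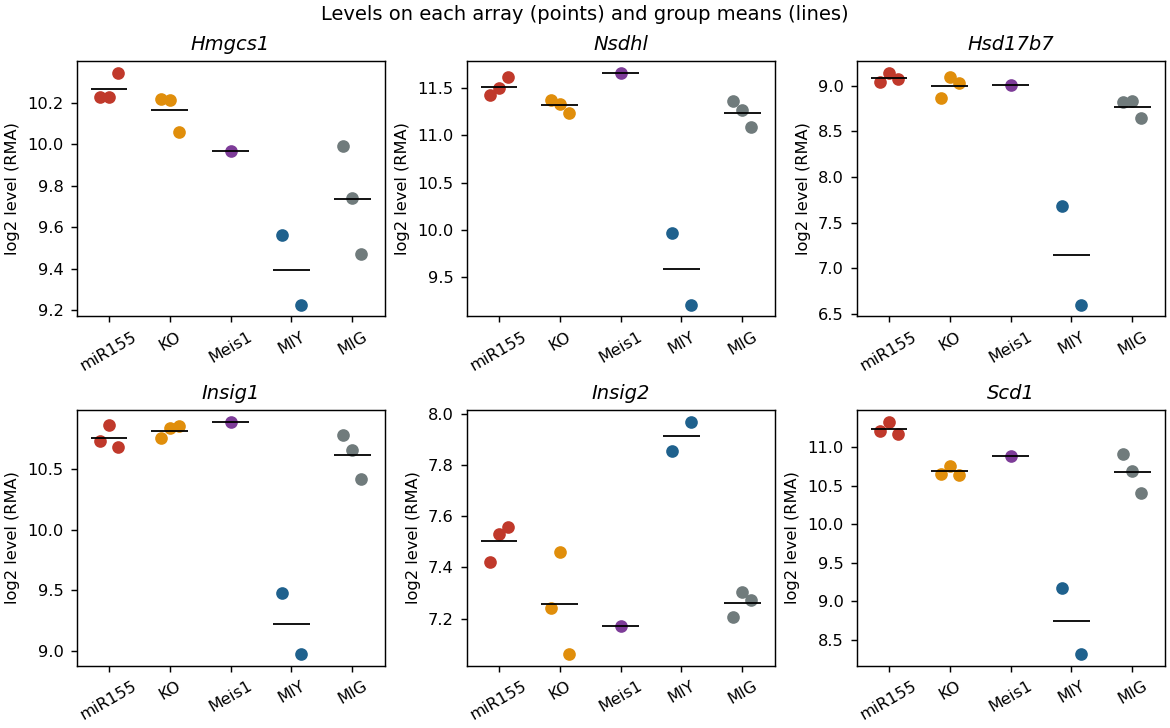
Log2 level (RMA) of 6 genes on every array (points) with the mean of each group (lines), in the order miR155, KO, Meis1, MIY and MIG; the axes do not start at 0. The MIY arrays lie below all others for Nsdhl, Hsd17b7, Insig1 and Scd1 and above all others for Insig2.

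Among the control genes, the paired inhibitors differed in direction. Insig1, itself a strong SREBP target, read 9.47 and 8.97 in MIY cells, against 10.78, 10.66 and 10.42 in MIG cells. Insig2, which in mouse liver is known for a transcript that falls with insulin, read 7.86 and 7.97 in MIY cells, against 7.21, 7.30 and 7.27 in MIG cells. Neither gene's arrays overlapped between the groups. Relative to the shift, the differences were -1.17 ± 0.15 for Insig1 (adjusted p = 0.000284) and 0.87 ± 0.10 for Insig2 (adjusted p = 0.000138). Srebf2, the gene of SREBP-2, read 10.47 and 10.32 in MIY cells, against 11.18, 11.32 and 11.12 in MIG cells (-0.59 ± 0.09, adjusted p = 0.00110). Scap, the escort, read 8.37 and 7.96 in MIY cells, against 8.87, 8.90 and 8.83 in MIG cells (-0.48 ± 0.12, adjusted p = 0.00905). Both stayed below every MIG array. Stard4, a sterol carrier, read 8.69 and 8.16 in MIY cells, against 9.24, 9.08 and 8.997 in MIG cells (-0.46 ± 0.15, adjusted p = 0.0311). Srebf1, the gene of SREBP-1, read 8.64 and 8.25 in MIY cells, against 8.76, 8.79 and 8.77 in MIG cells, and was called lower in the deposited values (-0.33 ± 0.11, adjusted p = 0.0289) but not relative to the shift (-0.10 ± 0.11, adjusted p = 0.465). The deposited Srebf1 call was lost without MIG 1, MIG 2 or MIG 3 (adjusted p of 0.0569 to 0.0676) and without MIY 2 (-0.13, adjusted p = 0.267).

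The fatty acid branch was uneven. Scd1, a stearoyl-CoA desaturase that makes oleate, read 9.18 and 8.32 in MIY cells, against 10.91, 10.69 and 10.41 in MIG cells, and differed by -1.70 ± 0.21 (adjusted p = 0.000293), or 0.307 of the MIG level. Its paralog Scd2 read 12.59 and 12.23 in MIY cells, against 12.46, 12.35 and 12.30 in MIG cells, with overlapping arrays and no call (0.27 ± 0.11, adjusted p = 0.0773). Thus MIY cells were lower in 1 desaturase and overlapped MIG cells in the other. Fads1, a desaturase of polyunsaturated fatty acids, read 9.50 and 9.01 in MIY cells, against 10.29, 10.29 and 10.15 in MIG cells (-0.77 ± 0.13, adjusted p = 0.00125). Acly, which makes acetyl-CoA from citrate, read 10.42 and 10.04 in MIY cells, against 10.96, 11.04 and 10.85 in MIG cells (-0.50 ± 0.10, adjusted p = 0.00453). Both were below every MIG array. Lpin1, a phosphatidate phosphatase, read 8.004 and 8.79 in MIY cells, against 8.14, 8.19 and 7.97 in MIG cells, and passed relative to the shift (0.52 ± 0.18, adjusted p = 0.0431) although only MIY 2 lay above the MIG arrays.

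Fasn, the fatty acid synthase, read 9.40 and 8.51 in MIY cells, against 9.95, 9.76 and 9.54 in MIG cells. Fads2, the desaturase ahead of Fads1, read 10.00 and 9.18 in MIY cells, against 10.58, 10.41 and 10.15 in MIG cells. Both were called lower in the deposited values (adjusted p = 0.0114 and 0.00971) but not relative to the shift (-0.57 ± 0.21, adjusted p = 0.0584, and -0.56 ± 0.20, adjusted p = 0.0520). Both deposited calls were lost without MIY 2 (-0.35 for Fasn and -0.38 for Fads2, adjusted p = 0.0775 and 0.0721). Acaca, acetyl-CoA carboxylase, read 8.81 and 8.50 in MIY cells, against 9.12, 8.92 and 8.77 in MIG cells. Elovl6, which lengthens palmitate, read 9.16 and 9.10 in MIY cells, against 9.78, 9.41 and 9.13 in MIG cells. Their arrays overlapped and neither passed (-0.06 ± 0.12 and -0.08 ± 0.15, adjusted p = 0.732 and 0.680).

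The 2 MIY arrays differed between themselves. MIY 2 was below MIY 1 for 14 of 15 sterol genes, 5 of 6 control genes and 8 of 9 fatty acid genes, against 50.4% of all probe sets. The median gap, MIY 2 minus MIY 1, was -0.58 for the sterol genes, -0.40 for the control genes and -0.38 for the fatty acid genes, against 0.00 for all probe sets. The median SD between the MIY arrays was 0.41 for the sterol genes, against 0.13 for all probe sets. In the other replicated groups the sterol median SD was 0.07 (miR155), 0.09 (KO) and 0.18 (MIG). The fit pools 1 spread per gene over all groups. Its SE can therefore be too small for differences from MIY cells and too large for those without them. In deposited values the sterol median of MIY minus MIG was -0.98. It was -0.76 without MIY 2 and -1.46 without MIY 1, so the direction held with either array and the size depended on which was used. The count of fatty acid genes called lower in the deposited values, 5 of 9 with all arrays, was 3 without MIY 2 and 7 without MIG 3. In the plot of medians by array, both MIY arrays lie below the line for all 3 groups of genes.

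**Figure D3:**
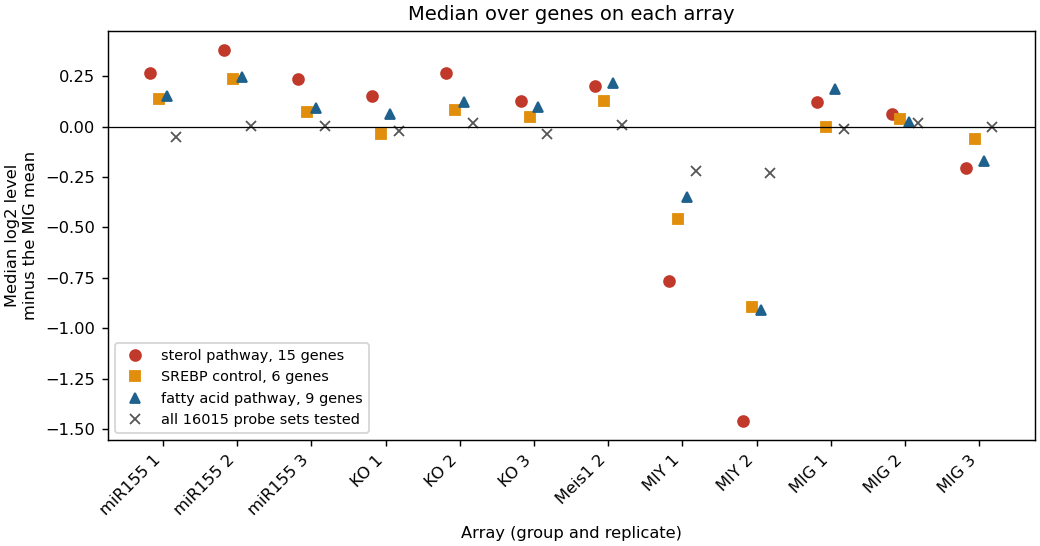
Median over the genes of each group on every array, as log2 level minus the mean of the MIG arrays; crosses are the median of all 16015 probe sets tested. The sterol median lies at -0.76 on MIY 1 and -1.46 on MIY 2, against about -0.22 and -0.23 for all probe sets, and at -0.21 on MIG 3, where all probe sets lie near 0.

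Markers of other cell types were set beside these values, where 18.7% of all probe sets were called lower and 19.9% higher relative to the shift. In MIY cells, 10 of 10 mast cell and basophil markers were lower than in MIG cells relative to the shift, with a summed level (log2 of the summed linear values) of 12.36 to 12.46 in MIY cells, against 13.95 to 14.16 in MIG cells. Of the 9 neutrophil markers 4 were lower and 1 higher, with summed levels of 14.13 to 14.75 in MIY cells, against 14.71 to 14.84 in MIG cells, and of the 8 progenitor markers 2 were lower, with summed levels of 14.75 to 15.23 against 15.47 to 15.57. Of the 5 eosinophil markers 3 were lower and 1 higher, with summed levels of 9.38 to 10.14 in MIY cells, against 11.51 to 11.98 in MIG cells, and of the 7 red cell and platelet markers 4 were lower, at 9.54 to 10.00 against 10.50 to 10.60. Of the 9 monocyte and macrophage markers 2 were lower and 2 higher, at 13.54 to 13.87 against 14.12 to 14.19. Of the 12 cell cycle genes, 3 were higher and 2 lower, with summed levels of 13.25 to 13.44 in MIY cells, against 13.41 to 13.60 in MIG cells. For progenitor markers, monocyte and macrophage markers and cell cycle genes, the shares called lower lay near that of all probe sets. The part of the marker differences in the lipid genes was not tested.

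Set against MIY cells, as the series design text intends, miR155 cells were higher in nearly the whole sterol pathway. Relative to the shift, 14 of 15 sterol genes, 4 of 6 control genes and 6 of 9 fatty acid genes were called higher, and Insig2 and Lpin1 were called lower, against a background of 18.2% higher and 19.6% lower. In the deposited values the counts were 15, 5 and 7 higher with the same 2 genes lower, against 38.5% higher and 9.85% lower, where the median of all probe sets was 0.21. This comparison shares the MIY arrays with the one above, so the 2 are not independent, and the values stand side by side. The median sterol difference was 1.20 relative to the shift.

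Scd1 read 11.21, 11.33 and 11.17 in miR155 cells, above both MIY arrays given above, and the difference was 2.28 ± 0.21, or 4.87-fold (adjusted p = 5.30e-05). Lss read 9.61, 9.58 and 9.52 in miR155 cells, with a difference of 1.76 ± 0.22 (adjusted p = 0.000320). Hsd17b7 read 9.04, 9.15 and 9.08, with a difference of 1.74 ± 0.24 (adjusted p = 0.000464). These enzymes of the desaturase, cyclase and reductase steps stood furthest above MIY cells. Nsdhl read 11.42, 11.49 and 11.61 in miR155 cells (1.72 ± 0.18, adjusted p = 9.81e-05), and Insig1 read 10.73, 10.87 and 10.68 (1.33 ± 0.15, adjusted p = 0.000136). Insig2 read 7.42, 7.53 and 7.56 in miR155 cells and was lower than in MIY cells by -0.61 ± 0.10 (adjusted p = 0.00110). Lpin1 read 7.86, 7.95 and 7.87 in miR155 cells, below both MIY arrays, and differed by -0.71 ± 0.18 (adjusted p = 0.0124). The deposited Lpin1 difference of -0.50 became -0.11 without MIY 2 (adjusted p = 0.420) and missed the threshold without any one of the miR155 or KO arrays, MIG 1 or MIG 2 (adjusted p of 0.0524 to 0.0865), and that of Insig2 missed the threshold without MIY 2 (-0.35, adjusted p = 0.0689).

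The other sterol genes were higher in miR155 than in MIY cells on every array. Relative to the shift their differences ran from 0.67 ± 0.15 for Hmgcs1 (adjusted p = 0.00599) to 1.32 ± 0.20 for Dhcr7 (adjusted p = 0.000960). Fdps was the exception in the test, at 0.63 ± 0.30 (adjusted p = 0.121). Hmgcs1 read 10.23, 10.22 and 10.34 in miR155 cells, and Dhcr7 read 10.32, 10.38 and 10.25. Among the fatty acid genes, Fads1, Fads2, Fasn, Elovl6 and Acly were higher by 0.57 to 0.81, while Acaca missed the threshold (0.31 ± 0.12, adjusted p = 0.0720) and Scd2 overlapped between the groups (-0.14 ± 0.11, adjusted p = 0.333). Srebf2 and Scap were higher by 0.74 ± 0.09 (adjusted p = 0.000318) and 0.61 ± 0.12 (adjusted p = 0.00273), whereas Srebf1 did not pass (0.21 ± 0.11, adjusted p = 0.145). In the deposited values Fdps, Srebf1 and Acaca were called too, Srebf1 and Acaca not without MIY 2 (0.22 and 0.37, adjusted p = 0.0802 and 0.0557), and Fdps not without either MIY array, any miR155 array, MIG 1 or KO 2 (adjusted p of 0.0543 to 0.118). Between miR155 and MIY cells, 4 of 10 mast cell and basophil markers and 3 of 7 red cell and platelet markers were higher in miR155 cells relative to the shift. Of 9 monocyte and macrophage markers 5 were lower and 1 higher. Of 9 neutrophil and of 5 eosinophil markers, 2 were lower and 1 higher in each list. The background was 18.2% higher and 19.6% lower, and the part of these markers was not tested.

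**Figure D4:**
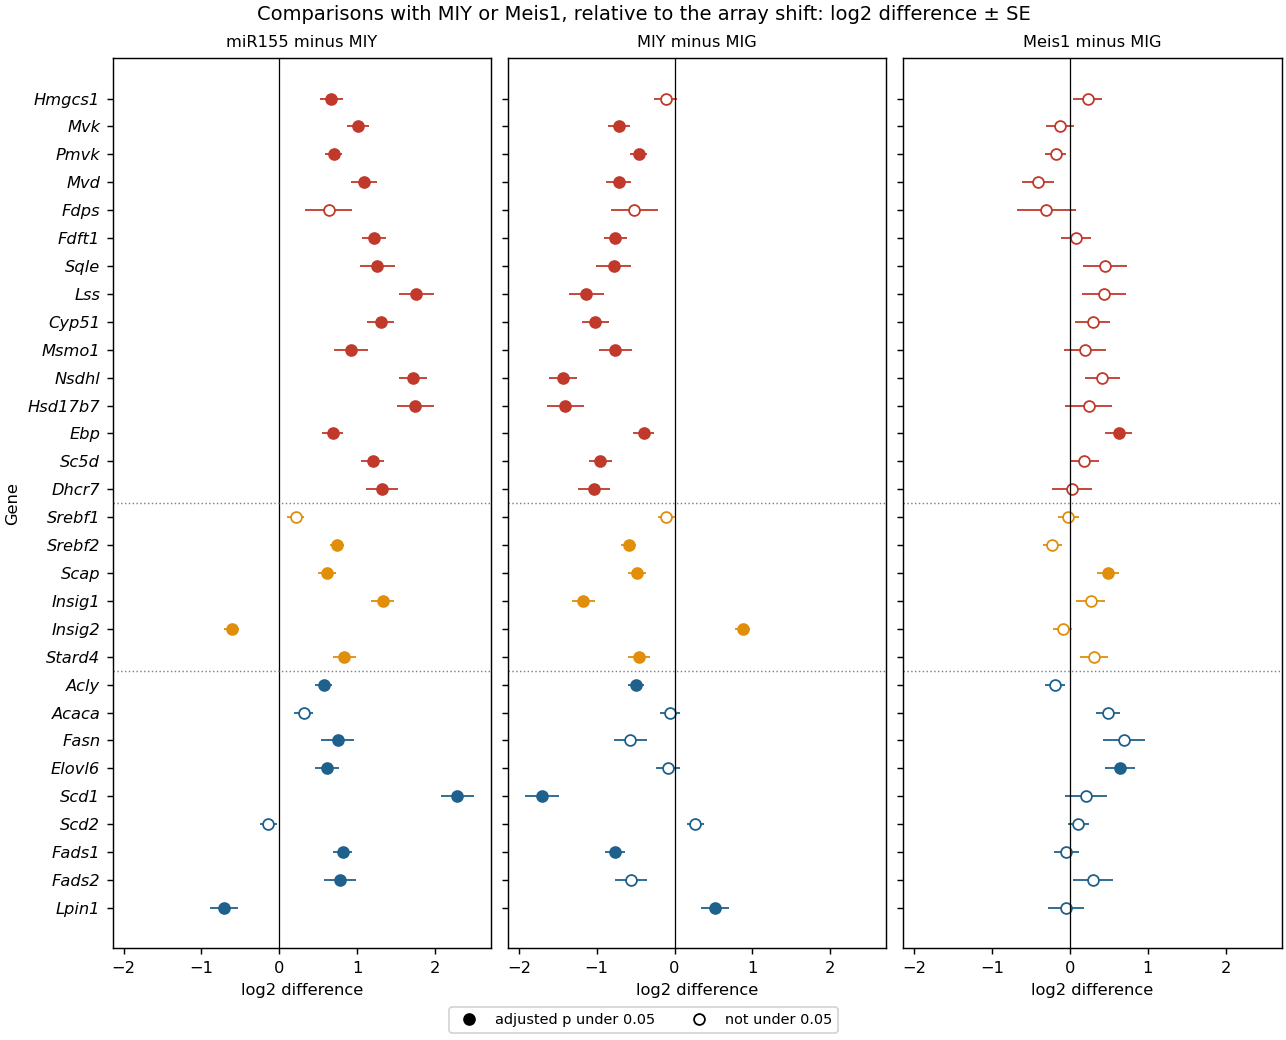
Log2 difference of each gene relative to the array shift, with limma's SE as bars, for miR155 minus MIY, MIY minus MIG and Meis1 minus MIG on a shared axis; filled points have an adjusted p under 0.05. Differences of miR155 minus MIY lie right of 0 and those of MIY minus MIG left of it except for Insig2, Scd2 and Lpin1, which run the other way. The differences of Meis1 minus MIG, of 1 array, lie between -0.40 for Mvd and 0.69 for Fasn, and 3 are filled.

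Set against MIG cells, miR155 cells showed small upward differences in the sterol genes that did not pass the test over 12 arrays. None of the 30 genes was called by limma, against 0.612% of all probe sets called higher and 2.68% lower. At an unadjusted p under 0.05 there were 6 of 15 sterol, 2 of 6 control and 2 of 9 fatty acid genes, against 2457 of all 16015 probe sets. All 15 sterol differences were positive, with a median of 0.27, against -0.01 over all probe sets and 0.14 and 0.16 for the control and fatty acid genes. In 12 of 15 sterol genes, 3 of 6 control genes and 2 of 9 fatty acid genes every miR155 array lay above every MIG array, against a background of 9.96% of probe sets.

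The 5 genes of smallest p are given as not passing. Hmgcs1 read 10.23, 10.22 and 10.34 in miR155 cells, against 9.99, 9.74 and 9.47 in MIG cells, a difference of 0.53 ± 0.13 (adjusted p = 0.0615). Elovl6 read 9.95, 9.96 and 9.94 in miR155 cells, against 9.78, 9.41 and 9.13 in MIG cells, a difference of 0.51 ± 0.13 (adjusted p = 0.0742). In both genes the groups did not overlap, and the MIG arrays were spread more widely than the miR155 arrays. Fdft1 read 10.19, 10.36 and 10.24 in miR155 cells, against 10.05, 9.88 and 9.56 in MIG cells (0.44 ± 0.14, adjusted p = 0.146). Lss read 9.61, 9.58 and 9.52 in miR155 cells, against 9.18, 9.12 and 8.58 in MIG cells (0.61 ± 0.20, adjusted p = 0.155). Scd1 read 11.21, 11.33 and 11.17 in miR155 cells, against 10.91, 10.69 and 10.41 in MIG cells (0.56 ± 0.19, adjusted p = 0.174). In each of these genes MIG 3 was the lowest array.

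That array was the lowest of the MIG group for 15 of 15 sterol genes and 9 of 9 fatty acid genes, and for 4 of 6 control genes, against 33.3% of all probe sets. Without MIG 3 the sterol median of miR155 minus MIG was 0.20 and the fatty acid median 0.07, against 0.27 and 0.16 with it. When the fit was limited to the 9 arrays of miR155, KO and MIG, a choice made after the data were seen, 4 sterol genes were called higher: Hmgcs1 (adjusted p = 0.0293), Lss (adjusted p = 0.0300), Sqle (adjusted p = 0.0402) and Hsd17b7 (adjusted p = 0.0479). So were Stard4 (adjusted p = 0.0481) and Scd1 (adjusted p = 0.0193), against 1.46% of all probe sets called higher in that fit. In the 9-array fit without MIG 3, only Lss (0.42, adjusted p = 0.0144) and Scd1 (0.43, adjusted p = 0.0403) were called among the 15 sterol and 9 fatty acid genes. Hmgcs1 was not called (0.40, adjusted p = 0.0677). No control gene was called higher without MIG 3, so the Stard4 call was lost as well. Over all probe sets, 108 were called higher without MIG 3, against 234 with it. Markers of other cell types also differed here, where 2.68% of all probe sets were called lower. All 10 mast cell and basophil markers were lower in miR155 than in MIG cells, with summed levels of 12.76 to 12.99 in miR155 cells, against 13.95 to 14.16 in MIG cells. So were 7 of 9 monocyte and macrophage markers, with summed levels of 13.29 to 13.38 against 14.12 to 14.19, and 4 of 5 eosinophil markers, at 9.71 to 9.96 against 11.51 to 11.98, and 3 of 7 red cell and platelet markers. Their part in the lipid gene differences was not tested.

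Loss of miR-155 gave no called member either. In KO minus MIG, 0.0187% of all probe sets were called higher and 0.0125% lower. At an unadjusted p under 0.05 there was 1 sterol gene and no other member, against 774 of all 16015 probe sets. Of the sterol differences 13 of 15 were positive, with a median of 0.17, or 0.07 without MIG 3, while the fatty acid median was 0.07, or -0.0028 without MIG 3. Every KO array lay above every MIG array in 4 of 15 sterol genes, against 5.91% of probe sets. Hmgcs1 read 10.22, 10.21 and 10.06 in KO cells, against 9.99, 9.74 and 9.47 in MIG cells, the smallest p of the members (0.43 ± 0.13, adjusted p = 0.874). It was thus nominally above MIG cells both with added and with absent miR-155. Cyp51 read 9.93, 10.02 and 9.88 in KO cells, against 9.87, 9.73 and 9.35 in MIG cells (0.29 ± 0.16, adjusted p = 0.996). Fdft1 read 10.12, 10.16 and 9.94 in KO cells, Pmvk read 8.41, 8.58 and 8.32, and Insig1 read 10.76, 10.84 and 10.85, each overlapping the MIG arrays and each with an adjusted p of 0.996. The comparisons of miR155 and of KO with MIG share the MIG arrays, so MIG 3 enters both. Of the 10 mast cell and basophil markers, 1 was lower in KO cells.

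In miR155 minus KO, which leaves the MIG arrays out of the difference, again none of the 30 genes was called over 12 arrays, against 1.09% of probe sets higher and 2.98% lower. At an unadjusted p under 0.05 there were 2 of 15 sterol, 1 of 6 control and 3 of 9 fatty acid genes, against 2562 of all 16015 probe sets. Every miR155 array lay above every KO array in 8 of 15 sterol genes, 2 of 6 control genes and 3 of 9 fatty acid genes, against 11.1% of probe sets, and the sterol median was 0.17. Scd1 read 11.21, 11.33 and 11.17 in miR155 cells, against 10.66, 10.76 and 10.65 in KO cells (0.55 ± 0.19, adjusted p = 0.179). Elovl6 read 9.95, 9.96 and 9.94 in miR155 cells, against 9.53, 9.66 and 9.58 in KO cells (0.36 ± 0.13, adjusted p = 0.207). Lpin1 ran the other way, at 7.86, 7.95 and 7.87 in miR155 cells, against 8.36, 8.31 and 8.25 in KO cells (-0.41 ± 0.16, adjusted p = 0.231). None of these 3 genes overlapped between the groups. In the 9-array fit Scd1 was called higher (adjusted p = 0.0197, background 2.24%). Lpin1 was called lower there (adjusted p = 0.00878), as were 836 of all 16015 probe sets. Insig2 read 7.42, 7.53 and 7.56 in miR155 cells, against 7.24, 7.46 and 7.06 in KO cells, and Ebp read 8.78, 8.92 and 8.69 in miR155 cells, against 8.42, 8.70 and 8.35 in KO cells. Both overlapped by 1 array and did not pass (0.25 ± 0.10 and 0.31 ± 0.13, adjusted p = 0.238 and 0.262). Mast cell and basophil markers moved with this comparison as well, 9 of 10 being lower in miR155 cells, at summed levels of 12.76 to 12.99 in miR155 cells, against 13.94 to 14.00 in KO cells. Also lower were 7 of 9 monocyte and macrophage markers (1 was higher), at 13.29 to 13.38 against 13.97 to 14.25, and 3 of 5 eosinophil, 4 of 7 red cell and platelet and 3 of 9 neutrophil markers. Their part in the lipid gene differences was not tested.

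**Figure D5:**
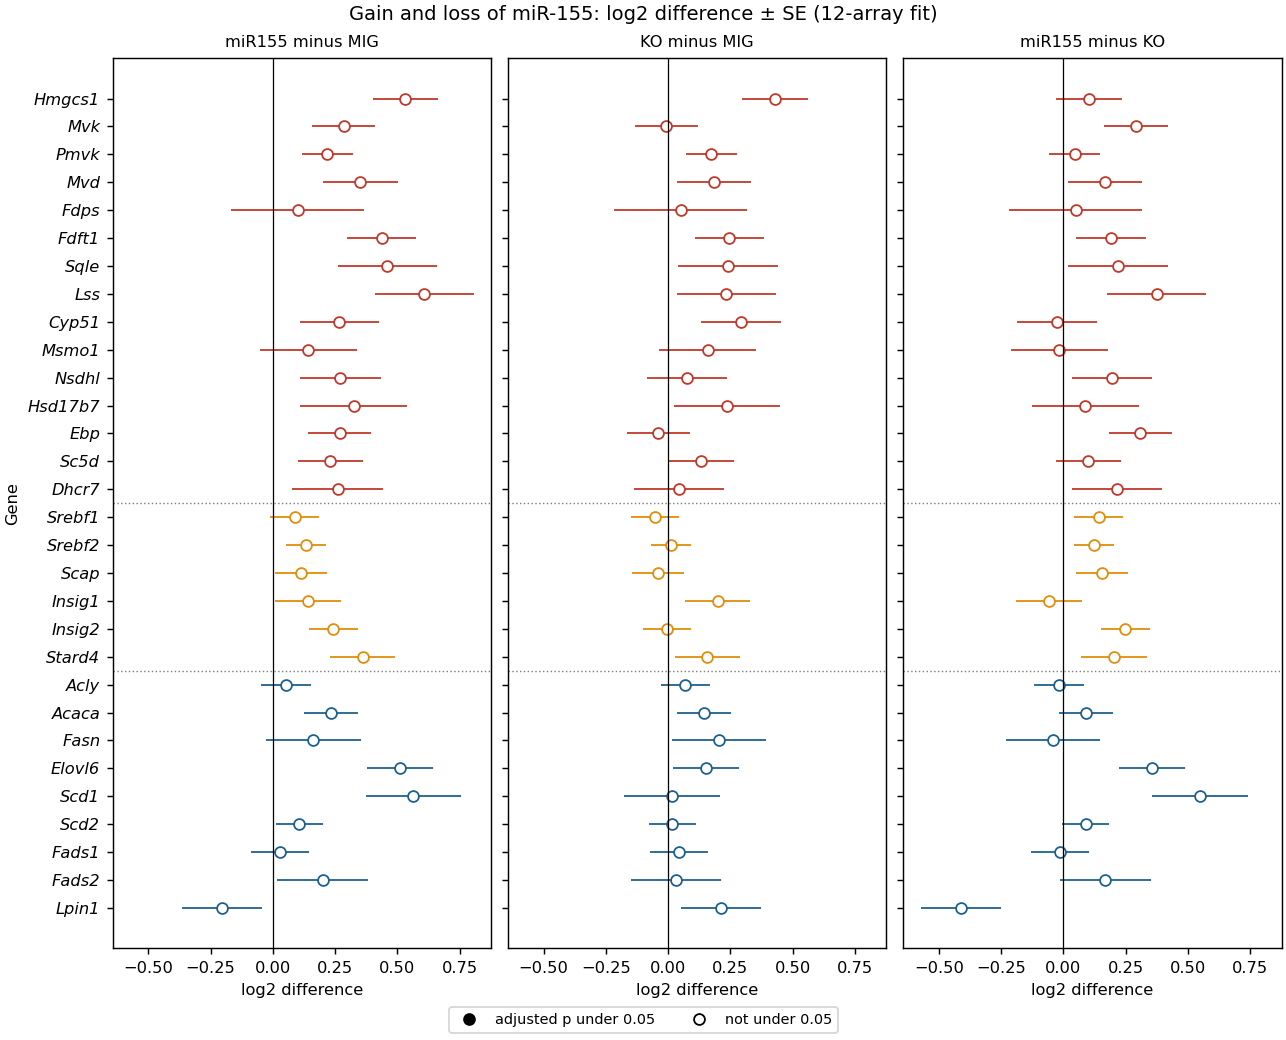
Log2 difference of each gene with limma's SE as bars, for miR155 minus MIG, KO minus MIG and miR155 minus KO on a shared axis, from the fit over 12 arrays; all points are open because no adjusted p was under 0.05. The sterol genes lie right of 0 in the first panel, and Scd1 and Lpin1 lie furthest from 0 in the third.

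The Meis1 cells had 1 array, and the fit assumes that it varied like the other groups. The labels do not name its control, so it was first set against the mean of the MIY and MIG groups. In the deposited values 8 sterol, 3 control and 4 fatty acid genes were called higher and Insig2 lower, against 17.1% of probe sets higher and 9.93% lower. Relative to the shift of 0.11 the counts were 7, 2 and 4 higher and again Insig2 lower, against 9.57% higher and 13.7% lower. In a fit of only the Meis1, MIY and MIG arrays, most of the deposited calls were lost, while those of Nsdhl, Ebp, Scap and Insig1 stayed. Fewer of all probe sets were called in that fit as well. The count also depended on the controls. Against MIY cells alone, 11 sterol, 4 control and 6 fatty acid genes were called higher and Insig2 lower relative to the shift (background 15.4% higher and 18.7% lower), and 13, 4 and 7 higher with Insig2 lower in the deposited values (33.1% higher and 11% lower). Against MIG cells alone, only Ebp, Scap and Elovl6 were called, all higher, against 5.97% of probe sets higher and 9.39% lower.

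Ebp read 9.16 on the Meis1 array, against 8.63, 8.56 and 8.39 in MIG cells (0.63 ± 0.18, adjusted p = 0.0391). Scap read 9.36 on the Meis1 array, against 8.87, 8.90 and 8.83 in MIG cells (0.50 ± 0.15, adjusted p = 0.0490). Elovl6 read 10.09 on the Meis1 array, against 9.78, 9.41 and 9.13 in MIG cells (0.65 ± 0.19, adjusted p = 0.0422). For these 3 genes the Meis1 array was above all MIY and MIG arrays. Fasn read 10.45 on the Meis1 array, also above all of them, but missed the threshold against MIG cells (0.70 ± 0.27, adjusted p = 0.116), as did Acaca, which read 9.43 (0.49 ± 0.15, adjusted p = 0.0567). The early enzymes Mvk, Pmvk, Mvd and Fdps read 8.19, 8.08, 8.73 and 4.18 on the Meis1 array and lay below the MIG mean, none passing.

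The remaining members called against the mean of both controls were Nsdhl at 11.66, Lss at 9.40, Sqle at 9.62, Cyp51 at 9.95, Hsd17b7 at 9.01, Sc5d at 10.48, Fdft1 at 9.91, Insig1 at 10.89, Stard4 at 9.42, Scd1 at 10.89 and Insig2 at 7.17 on the Meis1 array. Most of them lay close to the MIG arrays and far from the MIY arrays. For Nsdhl, the difference was 1.85 ± 0.24 against MIY cells relative to the shift (adjusted p = 0.000372) and 0.42 ± 0.23 against MIG cells (adjusted p = 0.274). For Scd1 it was 1.91 ± 0.29 against MIY cells relative to the shift (adjusted p = 0.000921) and 0.21 ± 0.27 against MIG cells (adjusted p = 0.685). Insig2 was called lower against the mean of both controls in the deposited values (-0.41 ± 0.13, adjusted p = 0.0412), but missed the threshold when any one of MIG 1, MIG 2, MIG 3, miR155 1, miR155 2, miR155 3, KO 1 or MIY 2 was left out (adjusted p of 0.0506 to 0.0682), and it was not called against MIG cells alone (-0.09, adjusted p = 0.753). Fdft1 (0.58 ± 0.19, adjusted p = 0.0451) likewise missed it without MIG 2, without MIY 2 or without any one of the miR155 or KO arrays (adjusted p of 0.0525 to 0.0668). Over all probe sets, 51.3% had positive differences to MIG cells on the Meis1 array. Of the other cell types, 8 of 9 neutrophil markers had negative differences to MIG cells on that array, at a summed level of 12.58 against 14.71 to 14.84. Of 9 monocyte and macrophage markers 7 were negative and 2 positive, at 12.31 against 14.12 to 14.19. Negative too were 9 of 10 mast cell and basophil markers, at 12.41 against 13.95 to 14.16, and 5 of 5 eosinophil markers, at 8.70 against 11.51 to 11.98. So were 6 of 7 red cell and platelet markers, at 8.92 against 10.50 to 10.60. Of 8 progenitor markers 4 were negative and 4 positive. All 12 cell cycle genes had positive differences, with a median of 0.40, against 0.01 over all probe sets. Their summed level was 13.88 on the Meis1 array, against 13.41 to 13.60 in MIG cells. The part of these differences was not tested.

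Further lists of lipid genes outside the 34 were set against the same arrays. Of 10 further SREBP-linked sterol genes, Tmem97, Rdh11, Aacs, Scarb1 and Rnf139 were lower in MIY than in MIG cells relative to the shift and 5 were higher (in the deposited values 5 lower and 2 higher), among them Npc1 and Npc2, which export cholesterol from lysosomes. Aacs, a ligase that feeds ketone bodies into synthesis, read 8.04 and 7.58 in MIY cells, against 8.63, 8.69 and 8.36 in MIG cells (-0.53, adjusted p = 0.0152), and Npc2 read 11.69 and 11.50 in MIY cells, against 10.96, 11.09 and 11.03 in MIG cells (0.80, adjusted p = 6.11e-05). Of 17 further fatty acid genes, 5 were lower and 2 higher, against 18.7% and 19.9% of all probe sets, or 10 lower and 1 higher in the deposited values, against 40.4% and 9.1%. Among them were Slc25a1, the citrate carrier, and Mid1ip1, an activator of acetyl-CoA carboxylase, with relative differences of -0.48 and -0.53 (adjusted p = 0.00558 and 0.00262). Of 13 fatty acid oxidation genes, 3 were lower and 2 higher relative to the shift, and 7 lower and 0 higher in the deposited values. These shares of the oxidation genes lie near those of all probe sets relative to the shift.

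Among 8 genes of sterol efflux, which liver X receptors (LXRs, sensors of oxysterols) are known to drive in part, 3 were higher and 2 lower in MIY than in MIG cells relative to the shift, against 19.9% and 18.7% of all probe sets, and 2 were higher and 2 lower in the deposited values. Abca1, the transporter that loads cholesterol onto lipoproteins, read 8.87 and 8.49 in MIY cells, against 7.31, 7.47 and 7.51 in MIG cells (1.47, adjusted p = 2.62e-05). Abcg1, a second cholesterol transporter, read 9.89 and 9.99 in MIY cells, against 9.21, 9.44 and 9.55 in MIG cells (0.76, adjusted p = 0.000564). Both transporters were thus above every MIG array while most synthesis genes were below. Apoe, which carries the exported lipid, ran against them, at 8.29 and 8.53 in MIY cells, against 9.22, 9.57 and 9.38 in MIG cells (-0.76, adjusted p = 0.00435), and so did the LXR gene Nr1h3 (-0.32, adjusted p = 0.0182).

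On the Meis1 array 6 of the 8 efflux genes were lower than in MIG cells and none was higher, against 9.39% of all probe sets lower and 5.97% higher, which rests on 1 array. Abca1 read 5.71 and Abcg1 8.66 there, below all MIG arrays, with differences of -1.72 (adjusted p = 6.53e-05) and -0.74 (adjusted p = 0.00524). Lipa, the lysosomal lipase that frees cholesterol from esters, read 9.85 on the Meis1 array, against 10.92, 10.91 and 10.90 in MIG cells (-1.06, adjusted p = 0.000132), and Apoe read 7.83 (-1.56, adjusted p = 0.000843). In miR155 minus MIG, Apoe was 1 of 2 genes called over all 4 further lists, at 8.43, 8.65 and 8.71 in miR155 cells (-0.80, adjusted p = 0.0198). The other was Npc1, at 9.29, 9.39 and 9.31 in miR155 cells, against 9.55, 9.72 and 9.77 in MIG cells (-0.35, adjusted p = 0.0389). Both were lower, in a comparison where 2.68% of all probe sets were called lower and 0.612% higher. The 4 lists held 10, 17, 8 and 13 measured genes. None of the genes of these lists was called in KO minus MIG.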

How the data were processed

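Gene expression was measured on 12 arrays in 5 groups, given by the sample titles. Per the submitters' processing notes, the authors made the deposited log2 values with RMA in the Affymetrix Expression Console, with no version or genome build given in the sources used here. This method subtracts background, forces the probe values of the arrays to share a distribution by quantiles and then summarises them. Real global shifts can thus be narrowed. The deposited values did not share 1 distribution, as their highest value ran from 13.59 to 13.78 between arrays. Of 23332 probe sets, 14996 had 1 symbol in the platform annotation, 1019 several and 7317 none. The 16015 with a symbol were tested with limma 3.58.1 in R 4.3.3, with a mean per group, 7 residual degrees of freedom and 3.06 from the prior. Beside shifts over 0.1 in the median of all probe sets, differences are also given after each array was moved to a median difference of 0 to the mean array. The number of arrays, 1 to 3 a group, limits the precision. Replicate numbers were not treated as pairs in the main fit. Deviations from group means correlated at -0.07 to 0.16 between same-numbered arrays, over 0.1 in 4 of 9 pairs and under 0 in 2. Between arrays of different number they correlated at -0.15 to 0.11, over 0.1 in 1 of 18 pairs and under 0 in 13. Whether the numbers pair the samples in part was not settled, so a replicate block is given as an alternative. The code was tested on simulated data.

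The members and gene lists were chosen with earlier results of these data known. Values on every array were to be given for members called in a comparison, or for the 5 of smallest p where fewer than 5 were called, and for other lists up to 4 called genes of smallest p were to be named; other names were chosen after their values were seen. Alternatives were leaving out each array, a replicate block, only the groups compared, other scalings, filters, probe sets and prior variance, and, added after the data were seen, a fit on 9 arrays. Averaging probe sets of a gene was not needed, since each had 1. Sequences came from RefSeq, GRCm38.p6.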

Additional observations from a re-analysis of the deposited data

How the results depend on the processing

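Differences relative to the shift were not rerun with arrays left out, among them the Lpin1 call in MIY minus MIG. No member called in the deposited values changed sign under any alternative run. The KO minus MIG medians near 0 did: the fatty acid median of 0.07 was -0.0028 without MIG 3, and the control median of 0.0030 ran from -0.017 (without MIG 1) to 0.04 (without MIG 2) with 1 array left out. In miR155 minus MIG, where 527 genes, 0 sterol, 0 control and 0 fatty acid members were called (higher), the counts with 1 array left out ran from 228 to 1051, 0 to 4, 0 to 1 and 0 to 1. With the 9 arrays of miR155, KO and MIG they were 1051, 4, 1 and 1, without MIG 3 as well 1 sterol and 1 fatty acid member, with only the groups compared 852 genes, with quantile normalization or without the lowest-expressed probe sets 1 sterol and 1 fatty acid member, and with an intensity trend 1 sterol member. In KO minus MIG, where 5 genes were called, the count ran from 0 to 13 with 1 array left out, was 13 on 9 arrays and 3 without MIG 3 as well, 11 with only the groups compared and 1 over all probe sets. In miR155 minus KO, where 651 genes were called, the count ran from 325 to 1195, with 0 to 1 fatty acid member higher and 0 to 1 lower, and was 1195, 1 and 1 on 9 arrays, while only the groups compared gave 1 sterol and 2 fatty acid members higher and 1 lower. With the replicate number as a block on the same 9 arrays, miR155 minus MIG had 1174 genes called, with 5 sterol and 1 fatty acid member higher. KO minus MIG then had 2 genes called. For miR155 minus KO the block gave 1309 genes, with 1 fatty acid member higher and 1 lower.

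In Meis1 minus controls, where 4333 genes, 8 sterol, 3 and 1 control members (higher and lower) and 4 fatty acid members were called, only the groups compared gave 2021 genes, 2 sterol, 0 control lower and 0 fatty acid members. Against MIG alone the counts were 2460, 1, 1 and 0, and 1, and against MIY alone 7066, 13 and 7. Quantile normalization and all probe sets each gave 0 control members lower, and leaving out 1 array gave 0 to 1, with 3688 to 5500 genes, 7 to 11 sterol and 4 to 6 fatty acid members higher and 0 to 1 lower. In miR155 minus MIY, where 7737 genes were called, only the groups compared gave 5082 genes and, like all probe sets, 0 fatty acid members lower; leaving out 1 array gave 6321 to 7737 genes, 0 to 1 fatty acid and 0 to 1 control members lower. In MIY minus MIG, leaving out 1 array gave 6544 to 7945 genes, 13 to 15 sterol, 3 to 7 fatty acid members lower and 0 to 1 higher, only the groups compared gave 3 lower, and the array shift 3 lower and 1 higher. The causes were not tested. Quantile normalization after RMA forces the arrays to 1 distribution. In MIY minus MIG it changed the calls over all probe sets from 1457 higher and 6464 lower to 3053 and 3269. The MIY comparisons rest on 2 arrays that differ, so their sizes are less certain than their directions.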
